A study of Mus musculus with 18 samples.

Results

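Immediate early genes are transcribed within minutes of a stimulus, without new protein synthesis, and their transcripts are short-lived. They include the AP-1 subunits Fos, Fosb, Jun and Junb, the zinc finger factor Egr1, the stress-responsive factor Atf3, the nuclear receptor Nr4a1, the small response proteins Ier2 and Ier3, and Zfp36, an RNA-binding protein that shortens the life of other short-lived transcripts. In the heart these genes respond to injury, stretch and growth factors, and in isolated cells they also respond to enzymatic dissociation. These 10 genes were chosen by name, with earlier results of these data known. All 10 were found among the 55453 gene symbols of the deposited count table. All 10 passed the filter on low counts and were among the 16170 genes tested.

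The transcripts were measured by bulk RNA sequencing of sorted GFP+ cells from neonatal mouse hearts, in 18 libraries that form 6 groups of 3. All pups were C57BL/6J by strain, carried Tcf21-MerCreMer; Rosa-mTmG, heterozygous for both (MerCreMer/+ and mTmG/+), and received tamoxifen at P1 (postnatal day 1), so that Cre under Tcf21 switched on membrane GFP in resident fibroblasts and their descendants. The groups were P2 baseline and P10 baseline (un-manipulated pups), then P2 sham +3 days and P10 sham +3 days (mock surgery, cells taken 3 days later), and the resected groups of both ages, also +3 days, in which the ventricular apex was removed. The study compared an age at which the heart regenerates with one at which it does not. The number and sex of the pups behind a library are not given in the sources used here, so the tests measure the spread between these libraries, which may be partly technical. Hearts were shaken in collagenase/dispase for 20 min at P2 to P5 and for 30 min at P10 to P13, so that age and the length of digestion cannot be told apart in any comparison of P10 with P2.

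Each library held between 10462737 and 22980554 counted reads. Tcf21, which marks the sorted lineage, had group means between 251 and 331 CPM (a gene's reads relative to the total of its library, after TMM scaling). Pdgfra, a fibroblast receptor, had group means between 367 and 538 CPM. The 8 cardiomyocyte markers examined summed to 132 to 1280 CPM, the 10 macrophage markers to 5.29 to 1075 CPM and the 5 neutrophil markers to 0 to 13.5 CPM. In bulk samples, fewer cells that express a gene and less RNA per cell cannot be told apart.

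The 10 genes were among the more abundant transcripts of these cells. Together they took between 0.336% and 1.35% of the counts of a library, with a median of 0.655% over the 9 libraries of pups that entered at P2 (the P2 window) and 1.23% over the 9 of pups that entered at P10 (the P10 window). Per exon length, as RPKM averaged over the 18 libraries, Fos was the most abundant at 804 RPKM. Junb had a mean of 585 RPKM, Ier2 512 RPKM, Egr1 494 RPKM and Jun 329.8 RPKM. Lower per-length means were found for Zfp36 with 173 RPKM, Nr4a1 with 141 RPKM, Ier3 with 104 RPKM and Atf3 with 82.6 RPKM. Fosb, a close relative of Fos, had the lowest mean, 8.26 RPKM. The ratio of Fosb to Fos per length was between 0.00269, in P2 sham replicate 3, and 0.0384, in P2 resected replicate 3.

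Of the 10 genes, the AP-1 subunit Jun was the one without overlap between the windows. Jun (chr4:95049034-95052222, minus strand, 1 exon, GRCm38) had levels of 621, 747 and 689 CPM at P2 baseline, 719, 729 and 549 CPM at P2 sham, and 636, 841 and 522 CPM at P2 resected. Its levels were 965, 1826 and 1773 CPM at P10 baseline, 1732, 986 and 1204 CPM at P10 sham, and 1519, 1370.2 and 1501 CPM at P10 resected. Every P10 library lay above every P2 library, which was the case, in this direction, for 1.15% of all genes tested. The log2 fold change of P10 over P2 was 1.09 ± 0.15 (SE, 95% interval 0.77 to 1.40, adjusted p = 9.26e-05). This and the other adjusted p-values across genes come from the edgeR quasi-likelihood test, adjusted by Benjamini-Hochberg over all genes tested. Of the exon bases of Jun, 7.28% are shared with Junos on the other strand, and the counting ignored strand, so reads from the pair cannot be told apart there.

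Junb, an AP-1 subunit that is often induced together with Fos, had the largest change between the windows. The levels of Junb (chr8:84974484-84978718, minus strand, 3 exon blocks) were 519, 579 and 694 CPM at P2 baseline, 1116, 647 and 424 CPM at P2 sham, and 492, 901 and 1427 CPM at P2 resected. They were 1791, 2219 and 2437 CPM at P10 baseline, 2211, 1222 and 1359 CPM at P10 sham, and 2112, 1542 and 2542 CPM at P10 resected. The windows overlapped through P2 resected replicate 3, while the other 8 P2 libraries lay below all P10 libraries. The log2 fold change was 1.37 ± 0.22 (SE, adjusted p = 0.000313 by the same edgeR test). Of the exon bases of Junb, 7.52% are shared with Prdx2 on the other strand.

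Fos, the partner of the Jun proteins in AP-1, rose as well. Fos (chr12:85473890-85477273, plus strand, 4 exon blocks) had levels of 1502, 1468 and 1271 CPM at P2 baseline, 1724, 852 and 466 CPM at P2 sham, and 676, 1916 and 1073 CPM at P2 resected. The P10 levels were 2504, 3028 and 2310.3 CPM at baseline, 3414, 1406 and 1455 CPM after sham surgery, and 2689, 2157 and 4145 CPM after resection. Of the P10 libraries, 7 lay above every P2 library, and the exceptions were P10 sham replicates 2 and 3. The log2 fold change was 1.08 ± 0.26 (SE, adjusted p = 0.00903, edgeR). The 120 bases upstream of the start of Fos, from RefSeq on GRCm38.p6, are shown because this gene had the highest level per length, with the TATAAA letters of its core promoter in capitals.
Fos, chr12:85473770-85473889, plus strand: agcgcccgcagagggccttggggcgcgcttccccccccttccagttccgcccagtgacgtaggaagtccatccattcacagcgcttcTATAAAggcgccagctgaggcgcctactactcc

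Egr1 and Zfp36, with adjusted p-values of 0.041 and 0.0411 by edgeR, passed the test by a small margin. Egr1 (chr18:34859823-34864984, plus strand, 2 exon blocks), a zinc finger factor induced by serum and stretch, ranged from 889 to 2461 CPM in the P2 window (median 1594 CPM) and from 1449.6 to 3680.2 CPM in the P10 window (median 3049 CPM). The windows overlapped, with 6 P10 libraries above every P2 library, and the log2 fold change was 0.69 ± 0.22 (SE, adjusted p = 0.041, edgeR). Zfp36 (chr7:28376784-28380253, minus strand, 1 exon block), which binds AU-rich elements and promotes decay of the transcripts that carry them, ranged from 105 to 698 CPM in the P2 window (median 412 CPM) and from 390.2 to 1553 CPM in the P10 window (median 800.3 CPM). The log2 fold change of Zfp36 was 1.07 ± 0.33 (SE, adjusted p = 0.0411, edgeR), and the windows overlapped. Leaving out any 1 of 11 libraries ended the call of Egr1, with an adjusted p of 0.0701 to 0.0824 by edgeR, and leaving out any 1 of 12 did so for Zfp36, with an adjusted p of 0.0554 to 0.0951. For both genes these included P10 resected replicates 1 and 3, P10 sham replicate 1, P10 baseline replicates 2 and 3, P2 resected replicate 1, P2 sham replicates 2 and 3, and P2 baseline replicates 1 and 3. For Egr1 the list also held P2 resected replicate 3, and for Zfp36 it held P2 resected replicate 2 and P2 baseline replicate 2.

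The other 5 members had positive differences that did not pass the test. Atf3 (chr1:191170296-191218039, minus strand), a repressor of the CREB family induced by many stresses, ranged from 21.5 to 246 CPM in the P2 window and from 84.4 to 433 CPM in the P10 window, with a log2 fold change of 1.05 ± 0.44 (SE, adjusted p = 0.126, edgeR). Nr4a1 (chr15:101254269-101274795, plus strand), an orphan nuclear receptor, ranged from 47.5 to 1232 CPM and from 172 to 1579 CPM, with 0.97 ± 0.58 (SE, adjusted p = 0.303, edgeR). For Ier3 (chr17:35821684-35822923, plus strand), a survival protein induced through NF-kappaB, the log2 fold change was 0.68 ± 0.30 (SE, adjusted p = 0.151, edgeR). It was 0.58 for Fosb (chr7:19302696-19310051, minus strand; SE 0.51, adjusted p = 0.504, edgeR) and 0.43 for Ier2 (chr8:84661331-84662852, minus strand; SE 0.20, adjusted p = 0.174, edgeR). The 95% intervals of Fosb and Nr4a1 held 0, and those of Atf3, Ier2 and Ier3 lay above it. Over the 25 settings tried, the differences ran from 0.52 to 1.82 for Nr4a1, 0.21 to 1.23 for Fosb and 0.63 to 1.42 for Atf3. They ran from 0.36 to 0.60 for Ier2 and from 0.53 to 0.91 for Ier3.

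**Figure D1:**
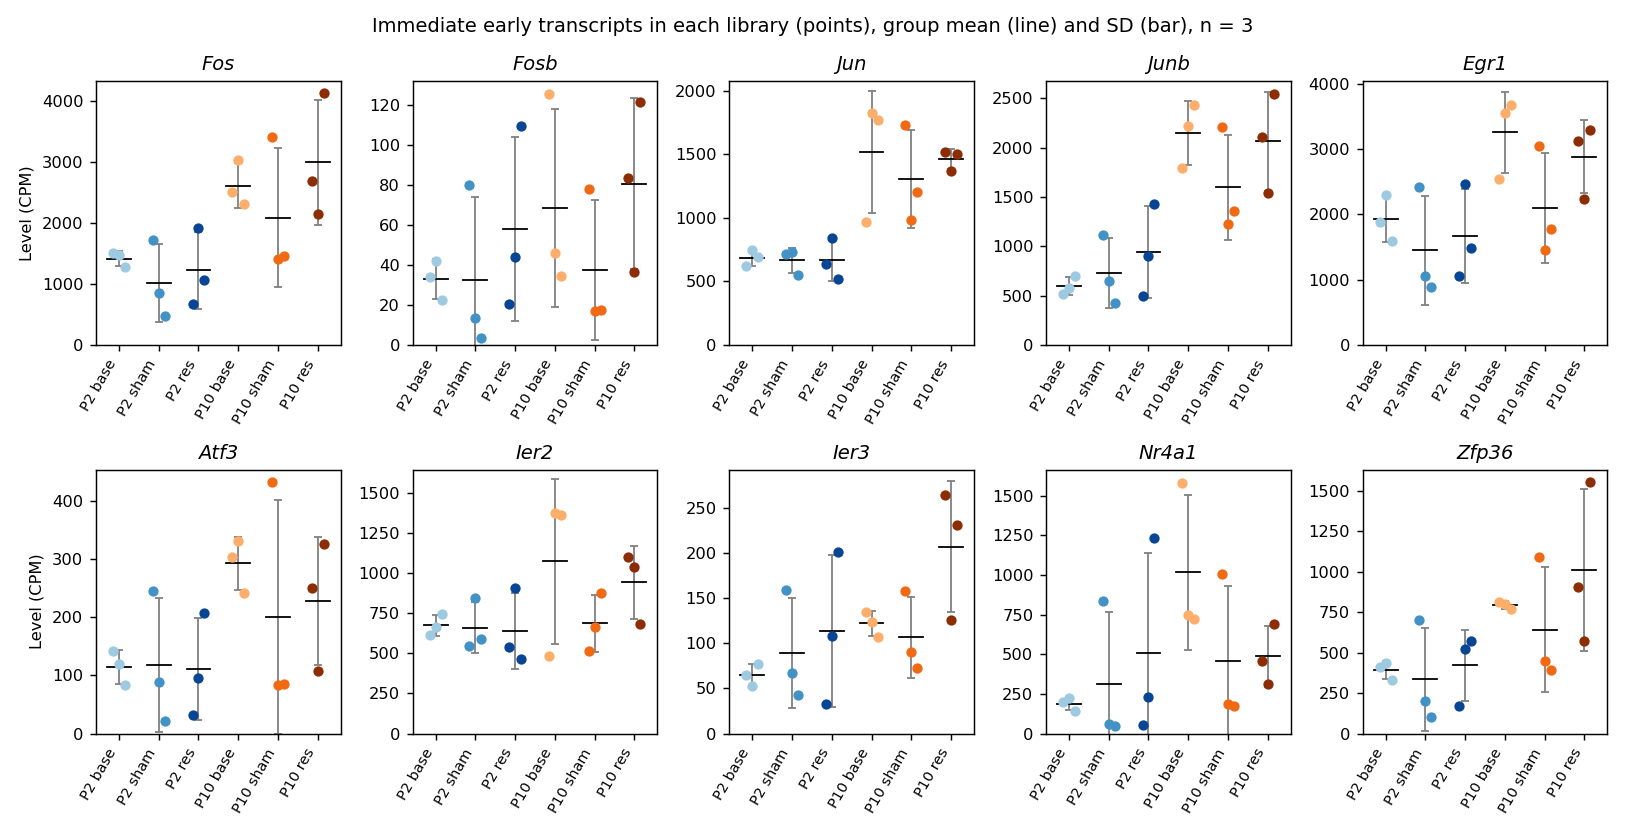
Level of each gene in CPM (vertical axes, from 0) in the 6 groups (horizontal axes; base, baseline; res, resected), with 1 point per library, a line at the group mean and a bar for the SD (n = 3, cut at 0). Jun in the P10 libraries lay between 965 and 1826 CPM, above all P2 libraries at 522 to 841 CPM, whereas Nr4a1 and Atf3 spread widely within the sham and resected groups.

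Over the windows, 5 of the 10 genes passed the test, all of them higher at P10, where 13.5% of all genes tested passed and 7.11% passed as higher. All 10 log2 fold changes were positive, against 45.8% of all genes tested, and their median was 1.01 against -0.06 over all genes. With 1 library left out all 10 stayed positive. The median then ran from 0.60 (without P10 sham replicate 1) to 1.25 (without P2 sham replicate 1). Jun, Junb and Fos kept an adjusted p under the threshold in all 25 settings tried. The number that passed was 9 with voom and 10 with no filter on low counts. Leaving out P2 sham replicate 1 raised the number of genes that passed from 5 to 8, since Atf3, Ier3 and Nr4a1 then passed, and Ier2 passed without P10 baseline replicate 1 (adjusted p = 0.0291, edgeR).

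The same age comparison was made at each of the 3 conditions alone, with 3 libraries against 3, so that these comparisons reuse the libraries of the windows. At baseline, in un-manipulated pups, Junb had a log2 fold change of 1.85 ± 0.38 (SE, adjusted p = 0.0101, edgeR) and Jun of 1.15 ± 0.26 (SE, adjusted p = 0.0176, edgeR). These were the 2 of 10 genes that passed, where 4.38% of all genes tested passed and 2.71% passed as higher. For 8 of the 10, all but Fosb and Ier2, every P10 baseline library lay above every P2 baseline library, which was so for 10.3% of all genes tested. Nr4a1 had the largest difference, 2.43 ± 1.06 (SE, adjusted p = 0.222, edgeR), with 1579, 750.1 and 719.7 CPM at P10 against 196, 223 and 145 CPM at P2. All 10 differences were positive, against 48% of all genes tested, with a median of 1.04 against -0.03 over all genes. Without P2 baseline replicate 1, none passed by edgeR (Jun, adjusted p = 0.0933, and Junb, 0.0575). Jun alone no longer passed without P10 baseline replicate 2 or 3, without P2 baseline replicate 2 or 3, or with only the groups compared (adjusted p = 0.0655, edgeR), and without P10 baseline replicate 1 Ier2 passed in addition (adjusted p = 0.0489, edgeR). With only the groups compared, Nr4a1 (adjusted p = 0.0138), Zfp36 (0.0394) and Atf3 (0.0406) passed by edgeR, so that 4 genes passed, as did 4 with voom and 6 with no filter on low counts.

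After sham surgery, Jun was the member that passed, with a log2 fold change of 0.97 ± 0.26 (SE, adjusted p = 0.0499, edgeR), where 3.18% of all genes tested passed and 1.54% passed as higher. Junb, at 1.13 ± 0.37 (SE, adjusted p = 0.119, edgeR), did not pass but its groups did not overlap, and Jun and Junb were the 2 members of which this held (9.07% of all genes tested in this direction). All 10 differences were positive, against 45% of all genes tested, with a median of 0.64 against -0.07 over all genes, and the smallest was 0.05 for Ier2. With 1 library left out, 6 to 10 were positive. The median then ran from 0.19 (without P10 sham replicate 1) to 1.62 (without P2 sham replicate 1). The call of Jun was lost without P10 sham replicate 1 or 3 or any P2 sham library (adjusted p of 0.0811 to 0.213, edgeR). It was also lost with DESeq2 size factors (adjusted p = 0.0517), with upper-quartile scaling (0.0502) and with only the groups compared (0.223), all by edgeR. Junb passed without P2 sham replicate 1 (adjusted p = 0.038, edgeR). The number that passed was 2 with DESeq2's Wald test or voom and 4 with no filter on low counts. With P10 sham replicate 1 left out, the differences of Fosb, Atf3, Ier3 and Nr4a1 were negative.

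After resection, Jun again was the member that passed, at 1.13 ± 0.26 (SE, adjusted p = 0.0494, edgeR), where 0.86% of all genes tested passed and 0.625% passed as higher. Fos (1.29 ± 0.45 SE, adjusted p = 0.279, edgeR), Jun and Junb (1.14 ± 0.37 SE, adjusted p = 0.231, edgeR) were without overlap between the ages, as were 10.6% of all genes tested in this direction. Of the 10 differences 9 were positive, against 47.3% of all genes tested, and Nr4a1 was the exception, at -0.06 ± 1.00 (SE), with 457, 314 and 693 CPM at P10 and 56.9, 231 and 1232 CPM at P2. The median over the 10 genes was 0.95 against -0.04 over all genes. With 1 library left out this median ran from 0.57 (without P2 resected replicate 1) to 1.43 (without P2 resected replicate 3). The call of Jun was lost when any 1 of the 6 libraries was left out (adjusted p of 0.0821 to 0.272, edgeR), while 3 genes passed with voom and 4 with no filter on low counts. Without P2 resected replicate 3 the difference of Nr4a1 was 1.76.

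Next, resected hearts were compared with sham hearts to ask whether these genes still differed 3 days after the injury. None of the 10 passed at P2 by edgeR, and none had an unadjusted p under 0.05, where 0% of all genes passed and 4.51% had an unadjusted p under 0.05. DESeq2's Wald test and limma's voom also called 0 of the 10. The log2 fold changes of resected over sham ran from -0.09 for Atf3 to 0.85 for Fosb (median 0.30), and 8 were positive, against 49.9% of all genes tested. These values rested on single libraries. With 1 library left out the number positive ran from 4 (without P2 sham replicate 3) to 10 (without P2 resected replicate 1), and the median from -0.06 to 0.96. Fosb was at 0.0056 without P2 resected replicate 3 and at 2.79 without P2 sham replicate 1, and at 2.87 with voom. Atf3 ran from -0.90 to 1.02 with 1 library left out and was at 1.28 with voom and 0.28 with the replicate number as a block. Jun had the narrowest interval, 0.00 with bounds of -0.54 and 0.55, and its sign also turned between settings, from -0.20 to 0.15 with 1 library left out. For Nr4a1 the bounds were -1.44 and 2.81. Its difference, 0.69, was -1.12 without P2 resected replicate 3 and 3.25 without P2 sham replicate 1. The sham and resected libraries overlapped for all 10 genes, and did not overlap for 8.47% of all genes tested. The intervals of 7 of the 10 genes still held 1, a difference of 1 unit of log2.

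At P10 none of the 10 genes passed by edgeR, DESeq2 or voom either, and 0 had an unadjusted p under 0.05, where 0% of all genes passed and 4.09% had an unadjusted p under 0.05. All 10 differences were positive, against 52% of all genes tested, from 0.10 for Nr4a1 to 1.11 for Fosb, with a median of 0.46 against 0.02 over all genes. The sham and resected libraries overlapped for each of the 10 genes, and 8.68% of all genes tested did not overlap. Ier3 had the smallest unadjusted p of the 10, 0.0866 by edgeR, with 265, 125 and 231 CPM after resection and 158, 90 and 72.9 CPM after sham surgery (log2 fold change 0.95, 95% interval -0.15 to 2.06). With 1 library left out, 7 to 10 of the differences were positive, with a median of 0.19 to 1.17. The difference of Nr4a1 was 1.45 without P10 sham replicate 1 but negative without P10 sham replicate 2 or 3 or P10 resected replicate 3, down to -0.29. That of Jun ran from -0.0039, without P10 sham replicate 2, to 0.42, without P10 sham replicate 1. That of Fosb ran from 0.66, without P10 resected replicate 3, to 2.23, without P10 sham replicate 1.

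The resection effect at P10 minus that at P2, tested as an interaction, passed for 0 of the 10 genes by edgeR, DESeq2 and voom, and 0 had an unadjusted p under 0.05 (0% of all genes tested passed, and 2.88% had one). It was positive for 9 of the 10, against 52.3% of all genes tested. It ran from -0.59 for Nr4a1 (95% interval -3.58 to 2.40) to 0.61 for Ier3 (95% interval -0.95 to 2.16). The number positive was 4 with voom, and with 1 library left out it ran from 2 (without P2 sham replicate 1) to 10 (without P10 sham replicate 1 or P2 resected replicate 3). Both extremes turned direction in this way, with -3.15 to 1.22 for Nr4a1 and -0.10 to 1.30 for Ier3. Sham surgery was also set against baseline, a comparison that holds 3 days of growth as well as the operation and that shares its sham libraries with the resection comparison. At P2 the differences ran from -0.48 for Fos to 0.74 for Nr4a1, and 4 were positive, against 51.9% of all genes tested. None was positive with voom, and 1 (without P2 sham replicate 1) to 8 (without P2 sham replicate 3) were with 1 library left out. Nr4a1 turned to -1.82 without P2 sham replicate 1 and to -1.51 with voom, and Fos ran from -1.24, with voom, to -0.13, without P2 sham replicate 3. At P10 none was positive, against 47.6% of all genes tested, and the differences ran from -1.16 for Nr4a1 to -0.19 for Ier3, with a median of -0.49 against -0.02 over all genes. With 1 library left out this median ran from -0.90 (without P10 sham replicate 1) to -0.22 (without P10 sham replicate 2). Ier3 was at 0.022 without P10 sham replicate 3, the 1 positive value over these settings, and Nr4a1 ran from -2.51, without P10 sham replicate 1, to -0.69, without P10 baseline replicate 1. None passed at either age by edgeR, DESeq2 or voom, and 0 had an unadjusted p under 0.05, where 0% of all genes passed at P2 and 0.00618% at P10, and 7.6% and 7.4% had an unadjusted p under 0.05. The baseline and sham libraries overlapped for every member at both ages, and the groups did not overlap for 9.96% of all genes tested at P2 and 10% at P10.

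**Figure D2:**
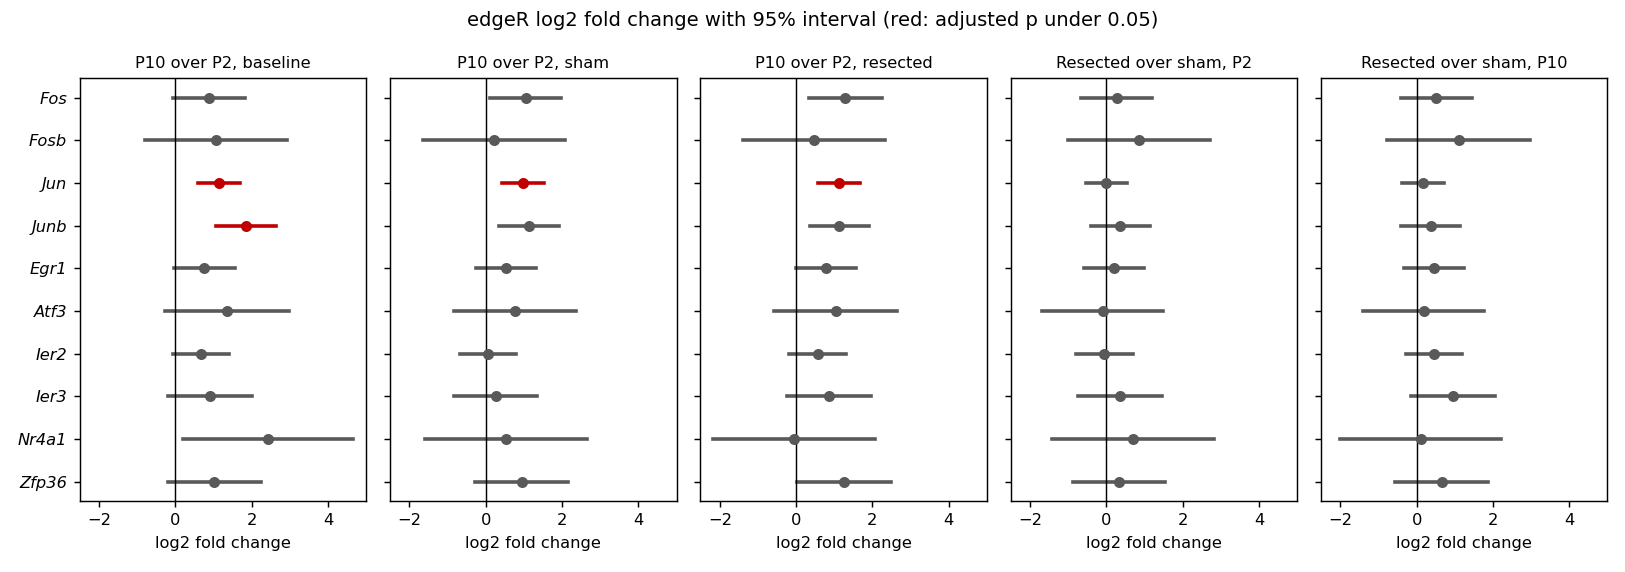
Log2 fold change (horizontal axes) of each gene (rows) by edgeR with its 95% interval, for P10 over P2 at the 3 conditions and for resected over sham at the 2 ages; red marks an adjusted p under 0.05. Jun is red in the 3 age panels and Junb in the baseline panel, and in the resection panels all 10 intervals hold 0.

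When the groups were ordered by their mean level, P10 baseline was highest for 6 genes and P10 resected for 4. The lowest group was P2 sham for 5 genes, P2 baseline for 3 and P2 resected for 2. For 7 of the 10 genes all 3 P10 means lay above all 3 P2 means, the exceptions being Fosb, Ier3 and Nr4a1, for which P2 resected lay above P10 sham. Neighbouring groups in these orders overlapped in 49 of 50 cases, so that most steps of the order were within the spread. The step without overlap was that from P2 baseline to P10 sham for Jun. The ratio of the highest to the lowest group mean ran from 1.68 for Ier2 to 5.40 for Nr4a1.

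Within a group the members differed widely in how far replicates spread. The within-group SD of log2 CPM was 1.48 for Nr4a1, 1.28 for Fosb and 1.13 for Atf3, against a median of 0.545 over all genes tested. Zfp36, Ier3 and Fos had values of 0.82, 0.75 and 0.62, Egr1 and Junb 0.50, Ier2 0.49 and Jun 0.33. The value of Nr4a1 was at percentile 98.9 of all genes tested and that of Jun at percentile 15.3. These percentiles are over genes of all levels, not over genes of like level. Over the 18 libraries the highest level of Fosb was 37.6 times the lowest, and for Nr4a1 this ratio was 33.2, whereas it was 3.50 for Jun and 2.98 for Ier2. The share of variance that lay between the 6 groups was 80.4% for Jun, 76.6% for Junb and 60.4% for Fos, against 29.6% for Ier2, 32.0% for Fosb and a median of 34.1% over all genes tested.

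Single libraries carried much of this spread. P2 sham replicate 3 had the lowest of the 18 levels for 7 of the 10 genes, and P2 resected replicate 1 was among the lowest 3 for 7. P10 resected replicate 3 was among the highest 3 for 7 genes. Nr4a1 shows the size of the differences, with 837, 59.3 and 47.5 CPM in the 3 P2 sham libraries, 56.9, 231 and 1232 CPM in the P2 resected ones, and 1007, 185 and 172 CPM in the P10 sham ones. P2 sham replicate 1 was the highest of its group for 8 genes and P10 sham replicate 1 for 9. The summed macrophage markers were at 5.29, 94.9 and 194 CPM in P2 sham replicates 1 to 3 and at 89.0, 361 and 284 CPM in P10 sham replicates 1 to 3. In the resected groups they were at 444, 195 and 66.2 CPM at P2 and at 441, 1075 and 68.7 CPM at P10, and at baseline at 60.8, 64.9 and 14.6 CPM at P2 and at 17.7, 93.0 and 199.6 CPM at P10. The library with the most reads of the 10 genes was the one with the fewest macrophage marker reads in 3 of the 6 groups (P2 sham, P10 sham and P10 resected) and another library in the other 3. The part of macrophage RNA in these differences was not tested.

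**Figure D3:**
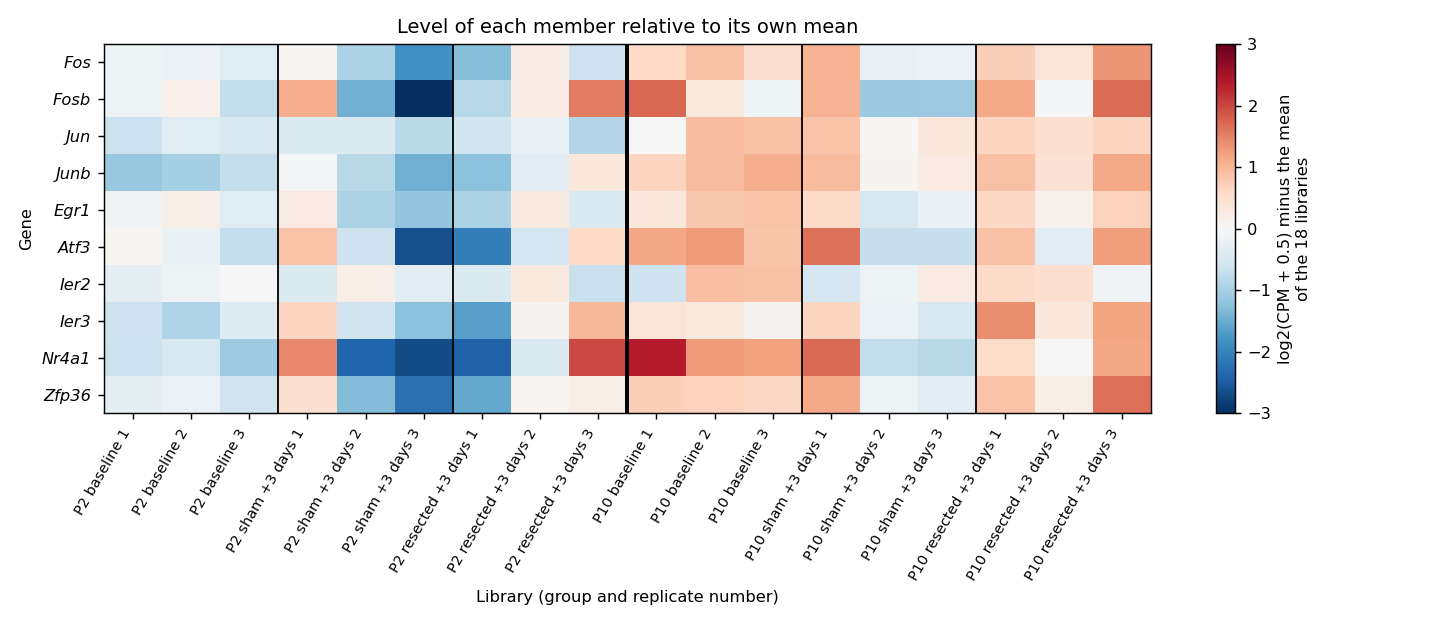
Log2(CPM + 0.5) of each gene (rows) minus its own mean over the 18 libraries (columns, by group and replicate number), with red above and blue below the mean; thin lines part the groups and a thick line the ages. The bluest columns are P2 sham replicates 2 and 3 and P2 resected replicate 1. The P2 baseline libraries and P10 sham replicates 2 and 3 were also below the mean on average over the genes. The rows of Jun and Ier2 have the palest colours.

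To see whether the members varied together, the group means were removed from log2(CPM + 0.5) and the remainders were correlated over the 18 libraries. Of the 45 pairs of genes, 38 correlated positively, with a median Pearson's r of 0.74, and 24 passed a two-sided exact permutation test within groups after Benjamini-Hochberg adjustment over the 45 pairs (28 by Spearman's rho). Atf3 and Zfp36 had the highest r, 0.95 (exact permutation p = 0.000214, adjusted p = 0.00225), with Spearman's rho of 0.90 (p = 0.000407, adjusted p = 0.00386) and an r of 0.93 without the 2 libraries farthest from the median. Fos and Egr1 had an r of 0.91 (exact permutation p = 0.0006, adjusted p = 0.00386), a rho of 0.85 (p = 0.00129, adjusted p = 0.00686) and an r of 0.86 without the 2 farthest libraries. All pairs among Atf3, Zfp36, Nr4a1, Fosb, Ier3 and Junb passed. The 18 libraries share their groups' handling, and the pairs are not independent of each other.

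Jun and Ier2 had the fewest pairs that passed. All 9 pairs of Jun were positive (median r of 0.35), and 1 passed, with Egr1 (r = 0.68, exact permutation p = 0.00889, adjusted p = 0.02; rho = 0.71, p = 0.00784, adjusted p = 0.0191; r = 0.64 without the 2 farthest libraries). Ier2 passed in 0 of 9, and its median r was -0.22. With Fosb its r was -0.49 (exact permutation p = 0.0609, adjusted p = 0.0884) and rho -0.49 (p = 0.0948, adjusted p = 0.132), and r was -0.65 without the 2 farthest libraries. With Nr4a1 the r was -0.46 (exact permutation p = 0.0687, adjusted p = 0.0966) and rho -0.50 (p = 0.0694, adjusted p = 0.101), and r was -0.51 without the 2 farthest libraries. With Jun the r of Ier2 was 0.58 (exact permutation p = 0.112, adjusted p = 0.153), with a rho of 0.46 (p = 0.15, adjusted p = 0.199) and an r of 0.62 without the 2 farthest libraries. Whether the correlations of Jun or Ier2 differ from those of the other genes was not tested.

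**Figure D4:**
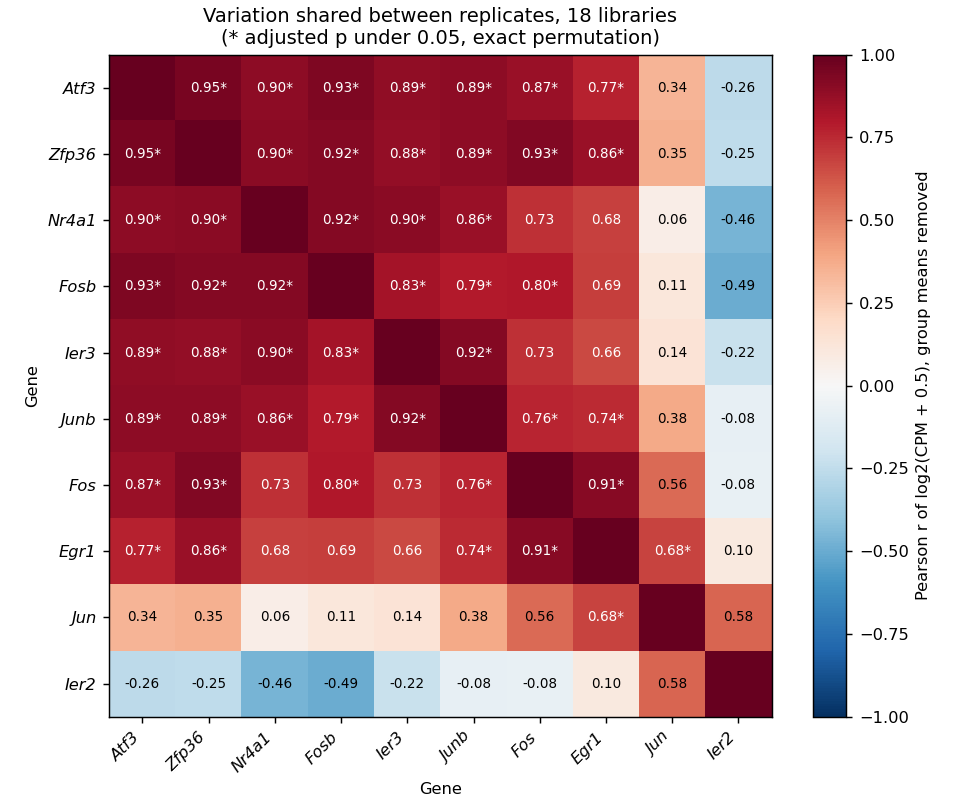
Pearson's r for each pair of genes over the 18 libraries after the group means were removed (colour and printed value; rows and columns are genes), with a star for an adjusted p under 0.05 by the exact permutation test. Red fills the block from Atf3 to Egr1, and the last row, Ier2, runs from -0.49 with Fosb to 0.58 with Jun.

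The ratio of Nr4a1 to Ier2 per length put these differences on one scale. It was lowest at 0.0304, in P2 sham replicate 2, and highest at 1.42, in P10 baseline replicate 1, a range of 46.8-fold. P10 baseline replicate 1 had the highest Nr4a1 level of all libraries, 1579 CPM, and an Ier2 level of 481 CPM, while the other two P10 baseline libraries had 1378 and 1359 CPM of Ier2. P2 resected replicate 3 was alike in this respect, with 1232 CPM of Nr4a1 and 463 CPM of Ier2, the lowest Ier2 level of the 18. In P2 baseline libraries the ratio stayed between 0.0843 and 0.146 (median 0.139). In P2 sham it was 0.665 in replicate 1 but 0.0304 and 0.0349 in replicates 2 and 3. In P2 resected it was 1.15 in replicate 3 but 0.0456 and 0.110 in replicates 1 and 2. The ratio of Jun to Fos per length was steadier, between 0.267 and 0.869 in the 18 libraries.

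**Figure D5:**
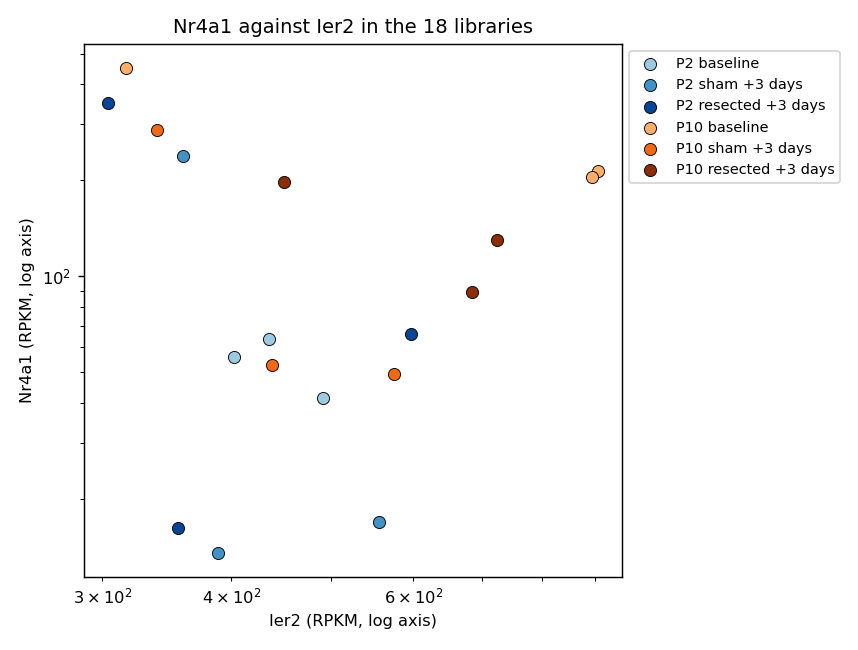
Level of Nr4a1 (vertical) against that of Ier2 (horizontal) in RPKM, both on log axes, with 1 point per library coloured by group. Nr4a1 runs from 13.5 to 449.9 RPKM and Ier2 from 304 to 905 RPKM, and libraries with high Nr4a1 are found at both ends of the Ier2 axis.

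Among the other 16160 genes tested, those whose levels over the 18 libraries followed the mean of the 10 most closely were Btg2 (r = 0.956), an antiproliferative early response gene, Socs3 (r = 0.931), a feedback inhibitor of cytokine signalling, and Gadd45g (r = 0.931), a growth arrest and DNA damage gene. Klf13 (r = 0.865), a zinc finger factor, and Lamb2 (r = 0.863), a laminin chain, came next. These values include the difference between the ages. With the group means removed, r was 0.930 for Btg2, 0.959 for Socs3 and 0.925 for Gadd45g, and 0.697 and 0.753 for Klf13 and Lamb2.

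Other immediate early genes, in a list of 40 of which 39 were tested, were examined over the windows. Of these, 10 were higher and 1 was lower at P10, where 13.5% of all genes tested passed and 7.11% passed as higher, and the median log2 fold change was 0.44, against -0.06 over all genes. The CCAAT-enhancer binding protein Cebpd had a log2 fold change of 1.62 ± 0.25 (SE, adjusted p = 0.000274, edgeR), and the windows did not overlap. Gadd45a rose by 1.65, Errfi1, a feedback inhibitor of the EGF receptor, by 1.50, Dusp1, a phosphatase that switches off MAP kinases, by 1.25, and Btg2 by 1.04 on the log2 scale. Dusp6, a phosphatase specific for ERK, fell by 0.52 (adjusted p = 0.0381, edgeR). Dusp6 passed in 12 of 25 settings, and leaving out any 1 of 12 libraries ended its call (adjusted p of 0.0515 to 0.0922, edgeR), as did no filter on low counts (0.0522). The call of Dusp6 held without P10 resected replicate 3, P10 sham replicate 2, P10 baseline replicate 1, P2 sham replicate 2 or P2 resected replicate 1 or 3. In the comparisons at a single condition, Dusp1 (1.35), Jund (1.23) and Klf2 (1.11) passed at baseline, Errfi1 (1.73) and Cebpd (1.67) after sham surgery, and Dusp1 (1.42) after resection, all of them higher at P10. The percentages of all genes that passed there as higher were 2.71%, 1.54% and 0.625%. Each of these calls ended without some single libraries, and with only the groups compared those of Dusp1 (adjusted p = 0.0824) and Jund (0.132) at baseline and of Errfi1 (0.153) and Cebpd (0.148) after sham surgery ended too, by edgeR. At baseline, leaving out P10 baseline replicate 2 or P2 baseline replicate 1 or 2 ended those of Dusp1, Jund and Klf2, as did P10 baseline replicate 3 for Dusp1 and Jund and P2 baseline replicate 3 for Jund, with adjusted p up to 0.093 for Dusp1, 0.259 for Jund and 0.0664 for Klf2 by edgeR. After sham surgery, leaving out P10 sham replicate 1 or 2 or P2 sham replicate 2 or 3 ended those of Errfi1 and Cebpd, as did P10 sham replicate 3 for Cebpd, with adjusted p up to 0.177 for Errfi1 and 0.154 for Cebpd by edgeR. After resection the call of Dusp1 ended when any library but P10 resected replicate 2 was left out (adjusted p up to 0.202, edgeR). None of the 39 passed by edgeR in the comparisons of resection with sham surgery, where 0 at P2 and 1 at P10 had an unadjusted p under 0.05, against 4.51% and 4.09% of all genes tested. None passed in those of sham surgery with baseline, where 3 at P2 and 3 at P10 had one, against 7.6% and 7.4% of all genes tested, so that these counts were near the background.

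Heat shock genes, which answer unfolded protein, were divided. Over the windows, where 13.5% of all genes tested passed and 7.11% passed as higher, 2 of 14 were higher at P10, namely Hspb8 (1.63) and its partner Bag3 (0.60), and 2 were lower, namely the chaperones Hsp90aa1 (-1.02) and Hspd1 (-0.55), with a median of -0.08. Bag3 passed in 9 of 25 settings, and leaving out any 1 library but P2 sham replicate 1 or P2 resected replicate 3 ended its call (adjusted p of 0.0512 to 0.0935, edgeR). The heat-inducible Hspa1a had a difference of 0.12 ± 0.47 (SE, adjusted p = 0.916, edgeR). Of 8 genes of the integrated stress response 1 passed over the windows, which is close to the 13.5% of all genes tested. This gene, Herpud1, which serves degradation of proteins from the endoplasmic reticulum, had a log2 fold change of 1.17 ± 0.17 (SE, adjusted p = 0.00016, edgeR), and the median was 0.37. At baseline Bag3 (1.23) and Herpud1 (1.62) were also higher at P10, where 2.71% of all genes passed as higher. That call of Bag3 ended without any 1 of the 6 libraries (adjusted p of 0.0799 to 0.158, edgeR). With only the groups compared, the baseline calls of Bag3 (adjusted p = 0.0578) and Herpud1 (0.060) ended by edgeR. Of 17 genes for kinases and factors that act upstream of immediate early genes, 0 passed by edgeR (1 had an unadjusted p under 0.05), with a median of 0.02. Srf, the factor that binds CArG boxes, had a difference of 0.13 ± 0.16 (SE, adjusted p = 0.658, edgeR).

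Promoter windows from RefSeq on GRCm38.p6, 250 bases before to 50 after each start, were matched for 8 of the 10 genes, all but Egr1 and Ier2. The RefSeq start differed from the outermost gene start of the annotation used for positions above by at most 30 bases for 5 of the 8. It lay inside the annotated gene by 1025 bases for Zfp36, 12577 bases for Nr4a1 and 34706 bases for Atf3, so that their windows are placed by the RefSeq start. Letters of known motifs were searched on both strands, and their share among 32851 promoter windows is given for comparison. The CArG box was found in 1 of the 8, Zfp36, and in 1.63% of all windows. The kappaB site was found in 4 of the 8, Fos, Fosb, Ier3 and Nr4a1, and in 4.51% of all windows. TATAAA was found in 2 of the 8 (Fos and Junb) and 13.6% of all windows, and the ETS motif CCGGAA in 2 (Zfp36 and Nr4a1) and 14.9%. The AP-1 motif (TGACTCA or TGAGTCA) was found in 0 of the 8 and 5.20% of all windows. The CRE, searched as the full TGACGTCA, was found in 0 of the 8 and 1.79%. Variants of the motif letters and sites outside the windows were not searched, so a motif not found here may still be present. The lines below show the CArG box of Zfp36, which lies within the annotated exon block of that gene, and the kappaB site of Ier3 in capitals, as examples of letters that can be read by factors activated in early responses, and a match is not evidence of binding in these cells.
Zfp36, chr7:28379267-28379296, minus strand: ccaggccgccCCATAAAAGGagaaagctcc
Ier3, chr17:35821611-35821640, plus strand: tgcgaagggcGGAGTTCCCCccggcccggc

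Cell markers and mitochondrial transcripts were compared between the windows as well. Over the windows, where 13.5% of all genes tested passed and 7.11% passed as higher, 5 of 8 cardiomyocyte markers were lower at P10, and their sum ran from 266 to 1280 CPM in the P2 window and from 132 to 670.4 CPM in the P10 window. Of 6 mural cell markers 3 were higher at P10, with a sum of 293 to 777 CPM in the P2 window and 475 to 1311 CPM in the P10 window. Of 5 erythroid markers 1 was higher (25.0 to 304 CPM and 46.8 to 478 CPM), and of 9 fibroblast markers 3 were higher and 1 was lower. By edgeR 0 of 10 macrophage, 0 of 7 endothelial, 0 of 4 tested neutrophil and 0 of 5 tested epicardial markers passed, while 1, 1, 0 and 1 of them had an unadjusted p under 0.05. Mitochondrial transcripts took 0.595% to 1.07% of the counts in the P2 window (median 0.691%). In the P10 window they took 0.198% to 1.05% (median 0.697%), with the lowest values, 0.253% and 0.198%, in P10 baseline replicates 2 and 3. The part of these values in the levels of the 10 genes was not tested.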

How the data were processed

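RNA of sorted GFP+ cells was amplified with a SMARTer low input kit and sequenced from Nextera XT libraries. Per the submitters' processing notes and the methods, the authors trimmed reads with fastp 0.20.0, mapped them with STAR 2.7.0f to GRCm38.p6 with GENCODE M22, and counted reads on exons per gene symbol with featureCounts (Subread 1.6.4), ignoring strand. The counts the authors deposited are whole numbers and not normalized, and duplicates of 1 amplified molecule are counted separately.

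From these counts, edgeR 4.0.16 in R 4.3.3 kept genes by filterByExpr (minimum count of 10, minimum total of 15), scaled libraries by TMM and fitted 1 quasi-likelihood model with a mean for each of the 6 groups to all 18 libraries. The window comparison contrasts the averages of 3 group means. P-values were adjusted by Benjamini-Hochberg over all 16170 genes tested, and an adjusted p under 0.05 was called. Standard errors were derived from the F statistics. Levels are CPM, or RPKM where genes are compared, with exon lengths and positions from GENCODE M21, 1 release before that of the authors. Correlations used exact permutations within groups (46656 arrangements). Sequences came from RefSeq.

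The authors used DESeq2; DESeq2 1.42.0 and limma 3.58.1 (voom with sample weights) were alternatives, as were other scalings, filters, a replicate block, fits of the compared groups alone, rlog values for correlations and leaving out each library. The fit was tested on simulated counts in which every gene shared the same relative spread. The spread of the 10 genes differed widely, so that simulation does not show error rates for them. The 10 genes and the other lists were chosen with earlier results of these data known. Named beyond the 10 are up to 5 called genes per direction, list and comparison and the 5 genes most like the 10; Tcf21 and Pdgfra check the cell label, and Hspa1a and Srf were named after their values were seen. Same-numbered libraries, which nothing states to share a litter or day, had correlated deviations from their group means, all 3 over 0.1, in 3 of 15 pairs of groups. These were P2 and P10 resected (0.135 to 0.252), P10 baseline and P10 sham (0.168 to 0.441), and P2 sham and P10 baseline (0.175 to 0.449), which include 2 of the comparisons made. All values in the report come from the model without a replicate block unless the block is named, and those with it are given under the alternatives. At this depth a count of 0 allows up to 3 counts.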

Additional observations from a re-analysis of the deposited data

How the results depend on the processing

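Each result was recomputed under other scalings, filters, tools and sets of libraries. In the window comparison the number of the 10 genes called, 5, became 9 with voom and 10 with no filter on low counts, and 3 to 8 with 1 library left out. At baseline 2 became 4 with voom, 6 with no filter, 4 with only the groups compared (Jun was lost and Atf3, Nr4a1 and Zfp36 were gained), and 0 to 3 with 1 library left out. After sham surgery 1 became 0 with DESeq2 size factors, upper-quartile scaling or only the groups compared, 2 with DESeq2's Wald test or voom, 4 with no filter, and 0 to 1 with 1 library left out. After resection 1 became 3 with voom, 4 with no filter, and 0 whichever library was left out. In the comparisons of resection with sham surgery and of sham surgery with baseline 0 were called under every alternative. The cause of these differences was not tested. With no filter, all genes called went from 0 to 24 at P2 and from 0 to 76 at P10 for resection, and DESeq2 called 25 and 39. DESeq2 called 24 genes for the interaction and 138 for P2 sham against baseline, where no filter gave 30 and 110. For P10 sham against baseline 1 gene became 121 with DESeq2, 151 with no filter and 0 to 5 with 1 library left out. At baseline the 709 genes called became 3645 with voom, 1600 with DESeq2, 1155 with no filter and 295 with only the groups compared (264 to 1207 with 1 library left out). After sham surgery 515 became 1191 with DESeq2, 911 with no filter, 125 with only the groups compared and 312 to 416 with 1 library left out. After resection 139 became 908 with voom, 496 with DESeq2, 526 with no filter, 332 with only the groups compared and 30 to 136 with 1 library left out. In the window comparison 2183 became 4569 with voom. Other scalings moved the median of all genes by under 0.04 (log2).

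Replicate numbers are shared by the groups, and the deviations of same-numbered libraries correlated between -0.18 and 0.45 (median 0.06, over 0.1 in 18 of 45 pairs), with all 3 over 0.1 in 3 of 15 pairs of groups. The replicate number was also used as a block. In P10 against P2 after resection, where all 3 same-numbered pairs were over 0.1, the genes called went from 139 to 186. Jun still passed there (adjusted p = 0.0469, edgeR). In P10 sham against baseline 1 gene was called as before. The numbers of the 10 genes called stayed at 5 for the windows, 2 for baseline and 1 each for sham surgery and resection. With the block, log2 fold changes of resected over sham at P2 were 0.28 for Atf3 and -0.0043 for Jun. The block also ended the call of Cebpd in P10 against P2 after sham surgery (adjusted p = 0.0514, edgeR). Same-numbered libraries of P2 and P10 sham correlated at 0.0518 to 0.384, with 2 of 3 over 0.1. The block changed no other call of a named gene.

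Directions that turned belonged to differences that had not passed the test. For Jun in resected against sham at P2 (0.00) the value was -0.021 with DESeq2 size factors or DESeq2's Wald test, -0.018 with only the groups compared, -0.0082 with upper-quartile scaling, -0.013 with a filter at 1 CPM in 3 libraries, and -0.20 to 0.15 with 1 library left out. For Atf3 there (-0.09) it was 1.28 with voom and -0.90 to 1.02 with 1 library left out. For Nr4a1 there (0.69) it was -1.12 without P2 resected replicate 3 and 3.25 without P2 sham replicate 1. For Nr4a1 in P10 against P2 after resection (-0.06) it was 0.0023 with upper-quartile scaling, 0.52 with voom and -0.59 to 1.76 with 1 library left out, and in P2 sham against baseline (0.74) -1.51 with voom and -1.82 to 1.25. With 1 library left out, P10 against P2 after sham surgery ran from -0.91 to 2.15 for Fosb, -0.49 to 1.87 for Atf3, -0.13 to 0.96 for Ier3, -0.82 to 3.09 for Nr4a1 and -0.16 to 0.28 for Ier2. Resected against sham at P10 ran from -0.29 to 1.45 for Nr4a1 and -0.0039 to 0.42 for Jun, and the interaction from -3.15 to 1.22 for Nr4a1, -0.0090 to 0.41 for Jun and -0.10 to 1.30 for Ier3. Sham against baseline ran from -0.11 to 0.078 for Jun at P2 and -0.58 to 0.022 for Ier3 at P10.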
